A study of Mus musculus with 9 samples.

Results

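The genes described here form a module of 50 mouse genes of the early response to cell stimulation: immediate early transcription factors of the AP-1, EGR, NR4A and KLF families, the MAP kinase phosphatases, and the genes that shut NF-κB signalling down again. They were picked by name, with earlier results of these data known. Each was read from the array row of highest mean that names that gene alone. Of the 50 genes 47 had such a row, among 22180 genes measured in this way. Fosl1 and Gadd45a stand on rows that also name another gene and Nfkb1 has no row of its own, so these 3 are not analysed here. Total RNA of γδ T cells, which carry a γδ instead of an αβ antigen receptor, was taken from C57BL/6 mice and hybridised to 9 Affymetrix Mouse Gene 2.0 ST arrays, 3 for each of 3 subsets. Intraepithelial lymphocytes (IELs) lie in the epithelium of the intestine, and the array descriptions place them in the small intestine. Naive-like and Type-1 cells both came from peripheral lymph nodes. No treatment, no altered allele and no age is given for any group, and the labels call the arrays biological replicates without saying how many mice went into each, so the tests speak of the spread among these 9 samples, which may in part be technical. IELs were shaken out of cut intestine for 20 min at 37 °C with a reducing agent and EDTA and then spun on Percoll, whereas lymph nodes were mashed and filtered. Subset, tissue and isolation therefore cannot be told apart in either comparison with IELs.

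Immediate early genes are switched on within minutes of a stimulus from transcription factors already present in the cell, with no need for new protein. In T cells the stimulus is classically the antigen receptor, which acts through MAP kinases, calcium and NF-κB, but cytokines, stress and handling of the tissue induce many of the same genes. A second layer then ends the response: DUSP phosphatases remove the phosphates from MAP kinases, ZFP36 proteins destroy short-lived messengers, and IκB proteins and the enzyme A20 switch NF-κB off. Many of these messengers are themselves short-lived, so that their level follows recent signalling.

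The stretches of promoter below show motifs through which such genes are read, for 6 genes that were higher in IELs than in both lymph node subsets and 3 that passed neither comparison with IELs. They are RefSeq sequences of build GRCm38.p6, printed 5′ to 3′ on the strand of the gene, with every match of the motifs searched in capitals. The motifs searched on both strands were the CREB site TGACGTCA (CRE) and its core TGACG, which also lies inside the full site, the AP-1 site TGANTCA, the EGR site GCGNGGGCG, and by name the CArG box of serum response factor and the κB site of NF-κB. The stretches of Dusp1 (chr17:26508593-26508672, minus strand) and Btg2 (chr1:134079266-134079325, minus strand) each hold a full CRE, the first beside a CRE core and the second beside an EGR site. Dusp5 (chr19:53529045-53529104, plus strand) has a pair of adjoining CArG boxes and a CRE core, and Nr4a2 (chr2:57124064-57124213, minus strand) 4 CRE cores and an EGR site. Tnfaip3 (chr10:19015411-19015560, minus strand) has an AP-1 site and κB sites, and Rel (chr11:23771030-23771079, minus strand) a CRE core and κB sites that overlap. Of those that passed in neither comparison, Nfkbia (chr12:55492648-55492707, minus strand) has a κB site, Zfp36 (chr7:28379269-28379338, minus strand) an EGR site and a CArG box, and Ppp1r15a (chr7:45526269-45526308, minus strand) a full CRE.
Dusp1: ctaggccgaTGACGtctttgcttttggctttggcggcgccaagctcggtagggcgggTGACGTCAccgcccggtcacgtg
Btg2: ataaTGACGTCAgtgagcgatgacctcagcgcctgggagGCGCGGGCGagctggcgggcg
Dusp5: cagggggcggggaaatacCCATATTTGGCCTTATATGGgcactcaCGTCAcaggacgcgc
Nr4a2: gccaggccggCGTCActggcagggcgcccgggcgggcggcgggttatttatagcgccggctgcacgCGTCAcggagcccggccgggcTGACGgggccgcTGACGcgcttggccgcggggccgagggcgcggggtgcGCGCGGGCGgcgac
Tnfaip3: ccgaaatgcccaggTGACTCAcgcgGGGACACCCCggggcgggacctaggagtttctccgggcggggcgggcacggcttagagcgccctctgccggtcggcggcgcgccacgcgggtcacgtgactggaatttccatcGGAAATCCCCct
Rel: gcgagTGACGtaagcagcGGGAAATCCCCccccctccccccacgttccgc
Nfkbia: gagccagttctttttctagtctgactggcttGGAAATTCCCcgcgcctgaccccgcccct
Zfp36: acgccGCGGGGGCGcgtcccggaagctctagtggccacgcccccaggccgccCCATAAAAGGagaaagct
Ppp1r15a: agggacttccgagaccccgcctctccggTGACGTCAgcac

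Of the 50 genes 37 had a promoter in the RefSeq table, and the 250 bases before the start were searched. A CRE core stood in 10 of the 14 genes with a promoter that were higher in IELs in both comparisons and in 10 of the 16 that passed neither, against 19.8% of all 27025 genes of the table. A full CRE stood in 2 and 3 of them, against 1.77% of all genes, a κB site in 3 and 7, against 8.23%, and an EGR site in 5 and 5, against 5.33%. The AP-1 site was found in 1 and 3 of them (7.82% of all genes) and the CArG box in 1 and 2 (1.62%). A match at any listed start of a gene counted, and the 2 groups had 16 and 29 promoters, so their shares are not set against each other. The same limit holds against all genes, which had 32851 promoters. By promoter the CRE core stood in 68.8% and 58.6% of the 2 groups and in 17.8% of all promoters. In the same order the full CRE stood in 12.5%, 10.3% and 1.55%, and the κB site in 18.8%, 31.0% and 7.25%. For the EGR site the shares were 31.2%, 17.2% and 4.7%, and for the AP-1 site 6.25%, 10.3% and 6.75%. For the CArG box they were 6.25%, 17.2% and 1.47%. Both groups of genes thus hold the same kinds of motif, and a match is a description of the letters, not a bound site.

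All values below are log2 units after RMA, differences carry their standard error, n = 3 arrays per subset, and a gene passed when its adjusted p from limma was under 0.05 over all 22180 genes. Over all genes the correlation between arrays was 0.947 to 0.983 within a subset and 0.912 to 0.975 across subsets, and the number of arrays limits the precision. Cd3d, Cd3e and Cd3g, which encode chains of the T-cell receptor complex, had means above 10.6 in all 3 subsets. The rest of the 5 measured genes listed for γδ T cells were dimmer. Sox13 had means of 5.53, 5.80 and 5.85 in IELs, Naive-like and Type-1 cells. Blk had means of 3.98, 4.80 and 4.78, lower in IELs but not passing (adjusted p = 0.058 and 0.063 in limma). The δ constant gene Trdc is not analysed here. Cd8b1, listed as a marker of αβ T cells, had a mean of 10.35 in Naive-like cells against 7.54 in IELs and 8.21 in Type-1 cells, while Cd4 stayed between 3.49 and 3.75. IEL replicate 1 stood apart for this module: it was the lowest IEL array for 40 of the 47 genes (85.1%), against 39.7% of all genes. The median of the 47 genes was 6.97 on that array and 7.91 and 7.84 on IEL replicates 2 and 3. On Naive-like replicates 1 to 3 it was 6.33, 6.96 and 6.55, and on Type-1 replicates 1 to 3 it was 6.60, 6.18 and 6.45. Every IEL array thus had a higher module median than every lymph node array, with Naive-like replicate 2 just below IEL replicate 1. The array descriptions carry numbers that fall into 3 runs, each with 1 array of every subset: 5, 6 and 8, then 9, 10 and 12, and, with a date code, 1, 2 and 4. The labels do not say what the numbers stand for.

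**Figure D1:**
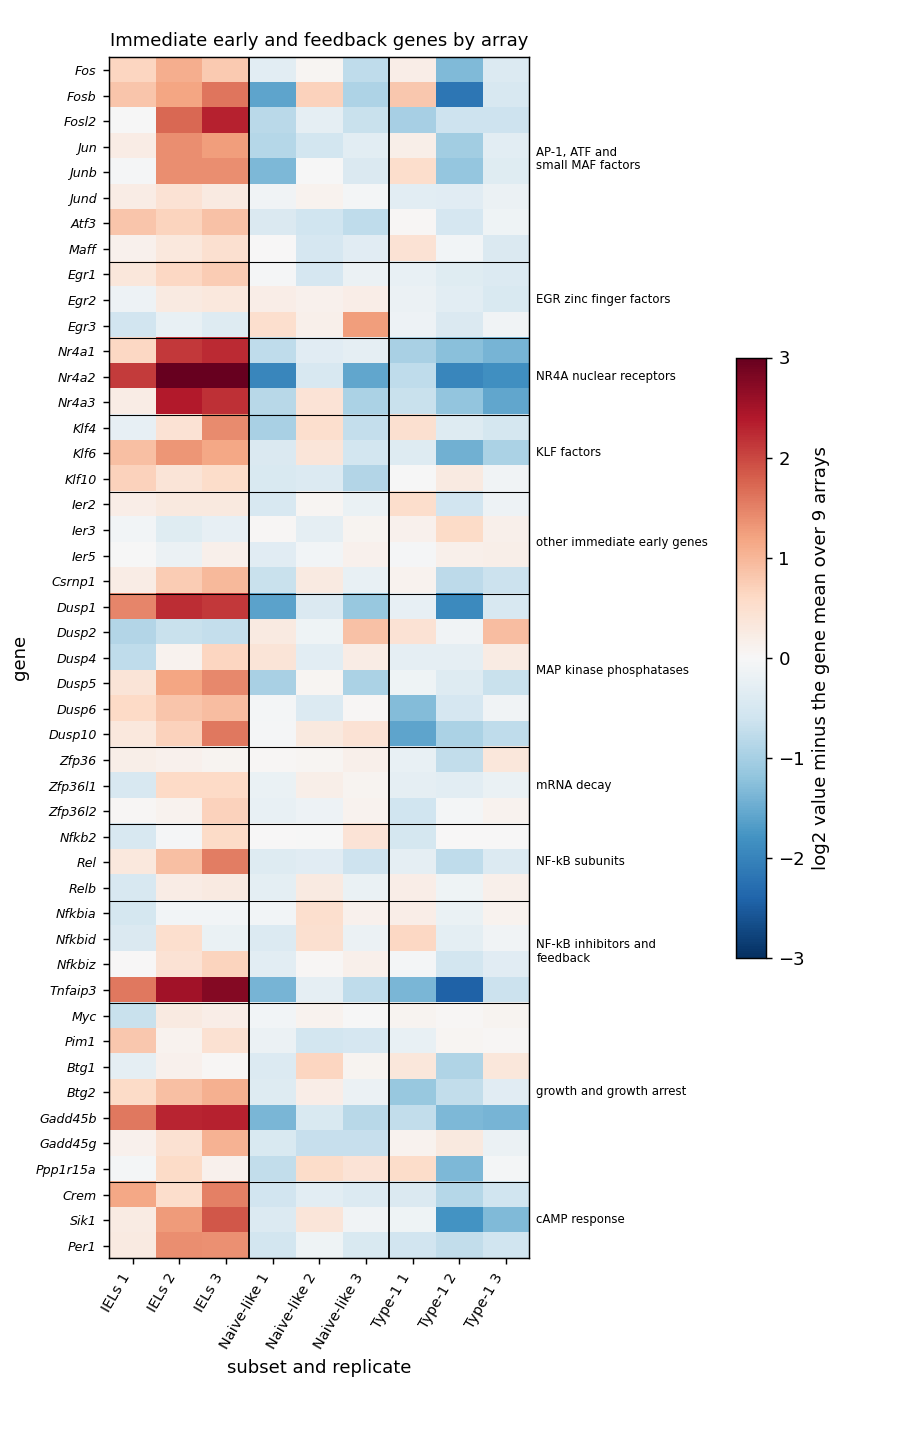
Each of the 47 measured genes by row, grouped by role, on each of the 9 arrays by column; colour is the log2 value minus the mean of the gene over the 9 arrays, cut at -3 and 3. Nr4a2, Dusp1, Tnfaip3 and Gadd45b are red on all 3 IEL arrays and blue on all 6 lymph node arrays, while Dusp2 is blue on all 3 IEL arrays and Egr3 red on all 3 Naive-like arrays.

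In IELs against Naive-like cells 19 of the 47 genes were higher and 1 was lower, where 3.57% of all genes were higher and 1.62% lower (5.19% in either direction). In IELs against Type-1 cells 20 were higher and 1 lower, where 3.73% and 1.41% of all genes were (5.14% in either direction). All 47 were among the 13308 genes above the 40th percentile of the mean. In a fit of only those genes 21 of the 47 passed in each comparison, where 8.47% and 8.48% of the 13308 did. Because the module was chosen with earlier results of these data known, these shares are a description, not an independent test. The median difference of the 47 genes was 0.87 and 0.69 in the 2 comparisons, beside -0.01 and -0.03 over all genes. All IEL arrays lay above all arrays of the other subset for 24 and 27 of the 47 genes (10.9% and 10% of all genes) and below them for 3 and 2 (9.25% and 9.78%; 20.1% and 19.8% either way). These comparisons share the IEL arrays. The 16 genes that passed as higher in both, which 2.7% of all genes did (0.897% were lower in both), were Fosl2, Jun, Atf3, Egr1, Nr4a1, Nr4a2, Nr4a3, Klf6, Dusp1, Dusp5, Rel, Tnfaip3, Btg2, Gadd45b, Crem and Per1. Klf10, Pim1 and Gadd45g passed as higher against Naive-like cells alone, and Fos, Dusp6, Dusp10 and Sik1 against Type-1 cells alone. Egr3 passed as lower against Naive-like cells and Dusp2 as lower against Type-1 cells, and 22 genes passed neither comparison. In bulk RNA a higher share of cells that express a gene and more of its RNA per cell cannot be told apart.

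The counts depended on single arrays. Against Naive-like cells 11 genes passed without IEL replicate 2 (3.72% of all genes in the same fit), 9 without IEL replicate 3 (3.76%), 10 without Naive-like replicate 1 (3.82%) and 9 without Naive-like replicate 3 (3.96%). Against Type-1 cells 12 passed without IEL replicate 3 (3.26%). When the 3 arrays whose descriptions carry a date code (replicate 3 of each subset) were left out, 3 and 10 genes passed, where 2.41% and 2.55% of all genes did. With every array row tested as a feature of its own, 8 and 12 genes passed, where 2.3% and 1.96% of all rows did. Nr4a2, Tnfaip3 and Gadd45b passed both comparisons under each of the 23 alternatives that had a test. Losses given below for single genes cover left-out arrays and blocks, not the other alternatives. Against Naive-like cells Pim1 kept its call under 5 of the 23, Egr3 under 11, and Egr1 and Nr4a3 under 12 each. Against Type-1 cells Jun kept its call under 9 of the 23 and Fos under 10.

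**Figure D2:**
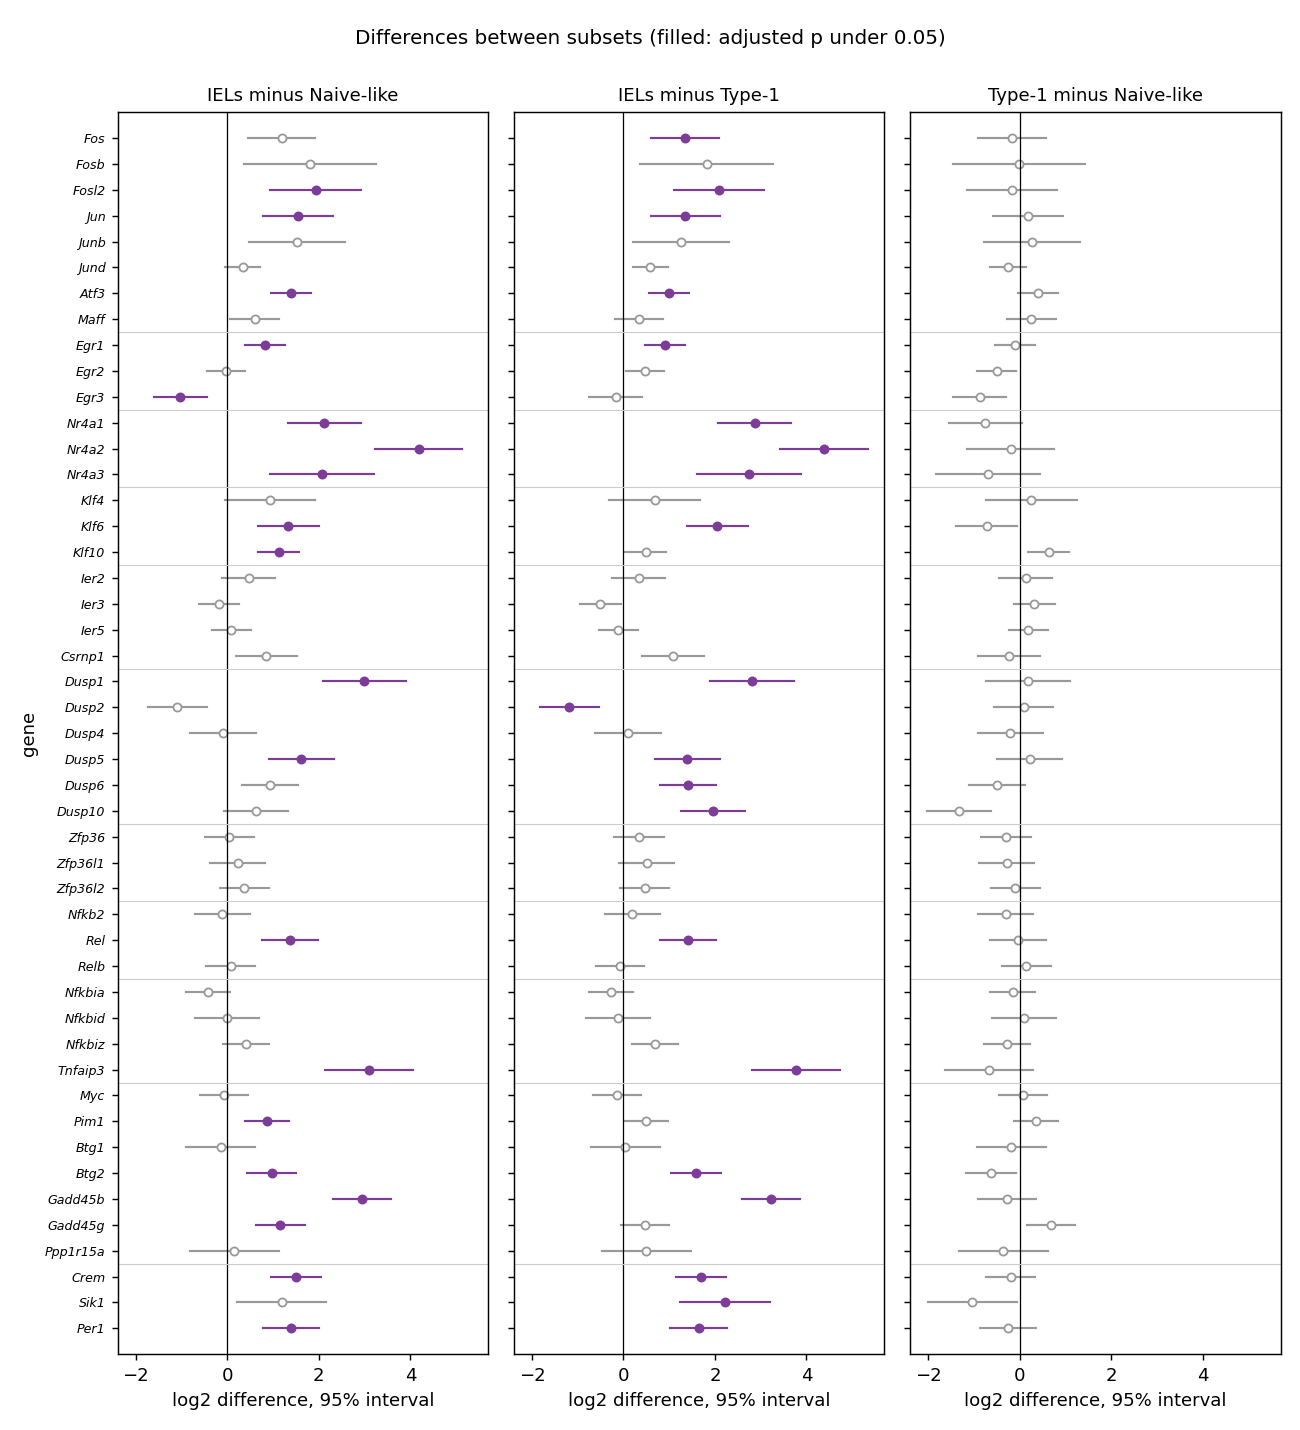
Log2 difference of each gene with its 95% interval in the 3 comparisons, by role; filled points have an adjusted p under 0.05 in limma. Filled points lie almost all right of 0 in the 2 comparisons with IELs, and there are none in Type-1 minus Naive-like.

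The NR4A genes encode nuclear receptors that need no known hormone and whose transcription follows antigen receptor signals in T cells, where they also restrain the response. All 3 were higher in IELs than in each lymph node subset. Nr4a2 read 9.49, 10.37 and 10.85 on IEL replicates 1 to 3, 5.43, 6.91 and 5.83 on Naive-like replicates 1 to 3, and 6.61, 5.43 and 5.54 on Type-1 replicates 1 to 3. Its IEL arrays lay far above all others, by 4.18 ± 0.44 (18.1-fold, adjusted p = 8.8e-05) against Naive-like and 4.38 ± 0.44 (20.8-fold, adjusted p = 7.2e-05) against Type-1 cells, the largest differences of the module. Nr4a1, whose protein Nur77 is widely used as a reporter of receptor signalling, read 8.87, 10.38 and 10.50 in IELs, 7.49, 7.92 and 8.0 in Naive-like and 7.28, 7.01 and 6.86 in Type-1 cells. The 3 subsets did not overlap, and IELs were higher by 2.12 ± 0.36 (adjusted p = 0.0037) and 2.87 ± 0.36 (adjusted p = 0.00044). Nr4a3 read 6.59, 8.74 and 8.56 in IELs, 5.52, 6.78 and 5.41 in Naive-like and 5.70, 5.17 and 4.79 in Type-1 cells. Here the lowest IEL array lay below the highest Naive-like array. Nr4a3 was higher in IELs by 2.06 ± 0.52 (adjusted p = 0.04) and 2.75 ± 0.52 (adjusted p = 0.0078). The first of these calls was lost without IEL replicate 2 or 3 or Naive-like replicate 1 or 3 (adjusted p up to 0.17, without IEL replicate 2) and with the run of description numbers or the date code of the arrays as a block (adjusted p = 0.069 and 0.057).

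AP-1 is a pair of FOS, JUN or ATF proteins bound to one DNA site. All 8 measured members of this group were higher in IELs by sign in both comparisons, but 3 passed against Naive-like and 4 against Type-1 cells. Jun, the core partner of AP-1, read 10.30, 11.46 and 11.33 in IELs, 9.21, 9.52 and 9.75 in Naive-like and 10.24, 9.03 and 9.75 in Type-1 cells, with IEL replicate 1 only just above Type-1 replicate 1. It was higher in IELs by 1.54 ± 0.35 (adjusted p = 0.022) and 1.36 ± 0.35 (adjusted p = 0.045). Fosl2, which encodes the FOS relative FRA-2, read 7.21, 8.95 and 9.55 in IELs, 6.41, 6.96 and 6.55 in Naive-like and 6.24, 6.61 and 6.60 in Type-1 cells. Its difference was 1.93 ± 0.45 (adjusted p = 0.027) and 2.09 ± 0.45 (adjusted p = 0.018), and IEL replicate 1 again lay nearest to the lymph node arrays. Atf3, a stress-induced repressor, read 5.79, 5.62 and 5.82 in IELs, 4.51, 4.36 and 4.19 in Naive-like and 4.98, 4.45 and 4.81 in Type-1 cells. It was higher in IELs by 1.39 ± 0.20 (adjusted p = 0.00098) and 1.00 ± 0.20 (adjusted p = 0.011) with little spread among IEL arrays.

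Fos, the best known immediate early gene, read 7.14, 7.57 and 7.28 in IELs, 6.17, 6.54 and 5.74 in Naive-like and 6.69, 5.17 and 6.08 in Type-1 cells. IEL arrays were above all others, but only the difference from Type-1 cells passed, at 1.35 ± 0.34 (adjusted p = 0.04), next to 1.18 ± 0.34 (adjusted p = 0.075) from Naive-like cells. Fosb read 9.17, 9.54 and 9.96 in IELs, 6.78, 9.04 and 7.43 in Naive-like and 9.16, 6.19 and 7.87 in Type-1 cells. It differed by 1.81 ± 0.67 from each lymph node subset (adjusted p = 0.20 and 0.18) and did not pass, and 1 array of each lymph node subset came close to IEL replicate 1 (0.13 and 0.01 below it). Junb did not pass either, at 1.52 ± 0.48 and 1.25 ± 0.48 (adjusted p = 0.11 and 0.20). Maff, a small MAF factor, and Jund differed by 0.33 to 0.59 and did not pass, and a second, dimmer row of Jund had the opposite sign against Naive-like cells (-0.29 beside 0.33). The call of Fos was lost without any one array except Naive-like replicates 2 and 3 and Type-1 replicate 1 (adjusted p up to 0.15), and with the replicate number as a block (adjusted p = 0.053). Against Naive-like cells Jun and Fosl2 lost theirs without IEL replicate 2 or 3 or Naive-like replicate 1, Jun also without Naive-like replicate 2 and Fosl2 without Naive-like replicate 3 (up to 0.11 and 0.12). Against Type-1 cells Jun lost its call without any one array except IEL replicate 1 and Type-1 replicate 1 (up to 0.18) and with the replicate number or the run of description numbers as a block (adjusted p = 0.056 in each), and Fosl2 without IEL replicate 2 or 3 or Type-1 replicate 1 (up to 0.087). Atf3 kept its call against Naive-like cells with each array left out in turn and lost that against Type-1 cells without IEL replicate 3 or Type-1 replicate 2 (adjusted p up to 0.054).

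The EGR zinc finger factors differed in direction. Egr1, induced by MAP kinase signals, read 6.37, 6.66 and 6.78 in IELs, 5.99, 5.52 and 5.85 in Naive-like and 5.81, 5.67 and 5.61 in Type-1 cells, and IELs were higher by 0.81 ± 0.20 (adjusted p = 0.035) and 0.91 ± 0.20 (adjusted p = 0.02). Egr3, which with Egr2 restrains T-cell activation, read 4.29, 4.65 and 4.48 in IELs, 5.36, 5.02 and 6.13 in Naive-like and 4.72, 4.43 and 4.76 in Type-1 cells. The Naive-like arrays stood above both other subsets: IELs were lower by 1.03 ± 0.27 than Naive-like cells (adjusted p = 0.044), and Type-1 cells differed from these by -0.87 ± 0.27 (adjusted p = 0.43). Egr2 means were 6.43, 6.46 and 5.97 in IELs, Naive-like and Type-1 cells and passed no test. Egr1 lost its call against Naive-like cells without IEL replicate 2 or 3 or any Naive-like array (adjusted p up to 0.16) and against Type-1 cells without IEL replicate 2 or 3 or Type-1 replicate 2 or 3 (up to 0.10). Egr3 lost its call without any one array except Naive-like replicate 2 (up to 0.14).

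Of the KLF factors Klf6, a growth-restraining factor induced early, read 10.07, 10.50 and 10.33 in IELs, 8.73, 9.53 and 8.63 in Naive-like and 8.78, 7.72 and 8.23 in Type-1 cells. No lymph node array reached the IEL arrays, and IELs were higher by 1.33 ± 0.30 (adjusted p = 0.022) and 2.05 ± 0.30 (adjusted p = 0.0013). Klf10, a target of TGF-β signals, exceeded its Naive-like level in IELs by 1.12 ± 0.20 (adjusted p = 0.0055), with Type-1 cells between them (means 5.87, 5.38 and 4.75 in IELs, Type-1 and Naive-like cells). Klf4, a factor of quiescence, differed by 0.93 ± 0.46 and 0.68 ± 0.46 and did not pass. None of Ier2, Ier3, Ier5 and Csrnp1, other immediate early genes, passed: their differences from Naive-like cells ran from -0.18 to 0.86 and from Type-1 cells from -0.51 to 1.09, the highest in both being Csrnp1 (adjusted p = 0.18 and 0.072). The call of Klf6 against Naive-like cells was lost without IEL replicate 2 or 3 or Naive-like replicate 1 or 3 (adjusted p up to 0.10).

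**Figure D3:**
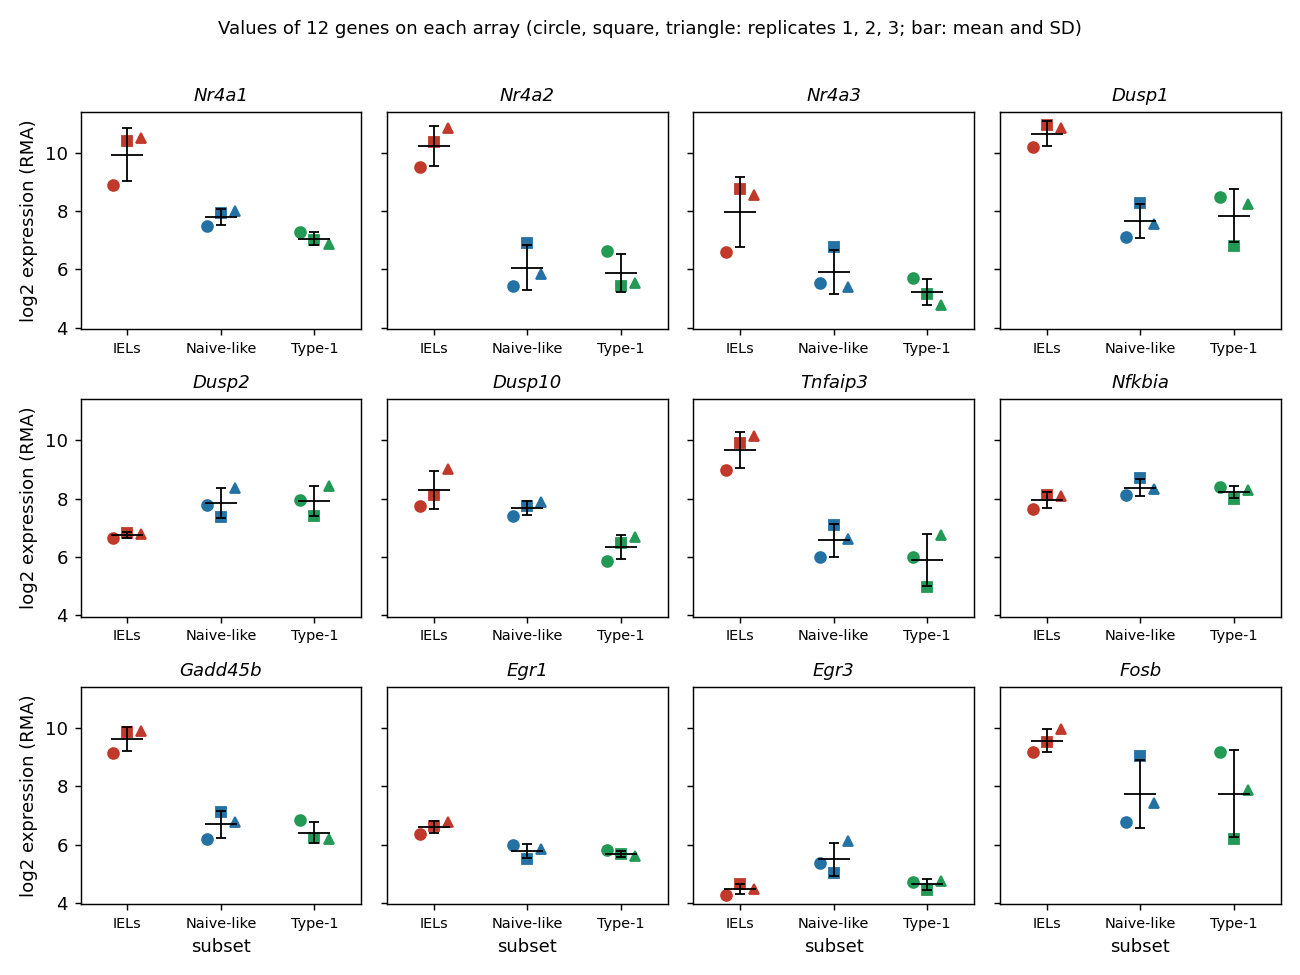
Log2 values of 12 genes on each array, with circles, squares and triangles for replicates 1, 2 and 3 of a subset and bars for the mean and SD. IEL arrays lie above all lymph node arrays in Nr4a1, Nr4a2, Dusp1, Tnfaip3, Gadd45b, Egr1 and Fosb and below them in Dusp2, while Naive-like replicate 2 and Type-1 replicate 1 of Fosb reach nearly to IEL replicate 1.

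The MAP kinase phosphatases moved in both directions. Dusp1, a nuclear phosphatase of p38 and JNK that is itself an immediate early gene, read 10.18, 10.93 and 10.84 in IELs, 7.11, 8.28 and 7.57 in Naive-like and 8.48, 6.81 and 8.23 in Type-1 cells. The gap between IELs and the lymph node arrays was wider than the spread within any subset, and IELs were higher by 3.0 ± 0.42 (7.98-fold, adjusted p = 0.00078) and 2.81 ± 0.42 (7.01-fold, adjusted p = 0.0014). Dusp2, another nuclear phosphatase and one strongly expressed in activated leukocytes, read 6.63, 6.83 and 6.79 in IELs, 7.78, 7.37 and 8.38 in Naive-like and 7.95, 7.41 and 8.44 in Type-1 cells. All IEL arrays were below all lymph node arrays. IELs were lower than Type-1 cells by 1.18 ± 0.29 (adjusted p = 0.038), and differed from Naive-like cells by -1.09 ± 0.29 (adjusted p = 0.056); the latter passed with the run of description numbers or the date code as a block (adjusted p = 0.027 and 0.02). The call against Type-1 cells was lost without any one array except Naive-like replicates 2 and 3 and Type-1 replicate 2 (adjusted p up to 0.11).

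Dusp5 and Dusp6 encode phosphatases of ERK, nuclear and cytoplasmic. Dusp5 read 7.72, 8.51 and 8.78 in IELs, 6.37, 7.39 and 6.39 in Naive-like and 7.21, 6.95 and 6.67 in Type-1 cells, with IELs higher by 1.62 ± 0.33 (adjusted p = 0.011) and 1.39 ± 0.33 (adjusted p = 0.028). Dusp6 means were 9.13 ± 0.18 (SD) in IELs, 8.20 ± 0.24 in Naive-like and 7.71 ± 0.61 in Type-1 cells, and only the difference from Type-1 cells passed (1.42 ± 0.28, adjusted p = 0.01). That from Naive-like cells, 0.93 ± 0.28, passed with the run of description numbers as a block (adjusted p = 0.024). Dusp10, a phosphatase of JNK and p38, read 7.75, 8.12 and 9.02 in IELs, 7.41, 7.73 and 7.87 in Naive-like and 5.86, 6.49 and 6.67 in Type-1 cells. Type-1 arrays were the low ones here, with IELs higher than Type-1 cells by 1.95 ± 0.32 (adjusted p = 0.0028) and different from Naive-like cells by 0.63 ± 0.32 (adjusted p = 0.43). Dusp4, a further nuclear phosphatase, differed by -0.09 ± 0.33 and 0.10 ± 0.33 and did not pass. Both calls of Dusp5 were lost without IEL replicate 2 or 3, the first also without Naive-like replicate 1 or 3 (adjusted p up to 0.06) and the second without Type-1 replicate 2 or 3 (up to 0.13), and that of Dusp6 without IEL replicate 3 (adjusted p = 0.053).

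In the NF-κB arm 1 of 3 measured subunits, Rel, and 1 of 4 inhibitors and feedback genes, Tnfaip3, passed as higher in IELs. Tnfaip3 encodes A20, the ubiquitin-editing enzyme that ends NF-κB signalling. It read 8.96, 9.90 and 10.14 in IELs, 6.00, 7.11 and 6.62 in Naive-like and 6.00, 4.96 and 6.74 in Type-1 cells. All IEL arrays lay well above the rest, by 3.09 ± 0.44 (8.54-fold, adjusted p = 0.00089) and 3.77 ± 0.44 (13.6-fold, adjusted p = 0.00023). Rel, which encodes the subunit c-Rel, read 8.80, 9.39 and 10.03 in IELs, 8.11, 8.15 and 7.87 in Naive-like and 8.21, 7.72 and 8.08 in Type-1 cells, and IELs were higher by 1.36 ± 0.28 and 1.40 ± 0.28 (adjusted p = 0.012 and 0.011). Nfkbia, which encodes IκBα and is a classical rapid NF-κB target, read 7.65, 8.11 and 8.10 in IELs, 8.11, 8.70 and 8.32 in Naive-like and 8.39, 8.0 and 8.29 in Type-1 cells. Its IEL arrays were not above the others, and the differences of -0.42 ± 0.22 (adjusted p = 0.45) and -0.27 ± 0.22 (adjusted p = 0.61) did not pass.

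The remaining NF-κB genes of the module gave small values. Nfkb2 and Relb, subunits of the non-canonical pathway, differed by -0.11 ± 0.27 and 0.07 ± 0.24 from Naive-like cells and by 0.19 ± 0.27 and -0.08 ± 0.24 from Type-1 cells. Nfkbid and Nfkbiz, nuclear IκB proteins, differed by -0.02 ± 0.32 and 0.41 ± 0.23 from Naive-like cells and by -0.12 ± 0.32 and 0.69 ± 0.23 from Type-1 cells. None passed; the 95% interval was -0.72 to 0.69 for Nfkbid against Naive-like cells and 0.18 to 1.19 for Nfkbiz against Type-1 cells (adjusted p = 0.14). The messenger decay genes Zfp36, Zfp36l1 and Zfp36l2 differed by 0.05 to 0.37 and by 0.34 to 0.50 and none passed; Zfp36 read 9.33, 9.30 and 9.23 on the IEL arrays. Without Naive-like replicate 3 Rel no longer passed against Naive-like cells (adjusted p = 0.058).

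Among the genes of growth and growth arrest, Gadd45b was the one that differed most. GADD45β is a stress protein that feeds into p38 and JNK and is induced by NF-κB and TGF-β. Gadd45b read 9.16, 9.86 and 9.88 in IELs, 6.21, 7.12 and 6.76 in Naive-like and 6.83, 6.23 and 6.18 in Type-1 cells. IELs were higher by 2.93 ± 0.29 (7.65-fold, adjusted p = 5.5e-05) and 3.22 ± 0.29 (9.29-fold, adjusted p = 3.5e-05), with no lymph node array within 2 units of the lowest IEL array. Gadd45g read 5.69, 6.03 and 6.60 in IELs, 5.11, 4.87 and 4.87 in Naive-like and 5.67, 5.86 and 5.38 in Type-1 cells. Naive-like arrays were the low ones, and IELs were higher than these by 1.16 ± 0.24 (adjusted p = 0.014) and differed from Type-1 cells by less than the test resolves (0.47 ± 0.24, adjusted p = 0.38).

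Btg2, an antiproliferative gene, read 9.31, 9.63 and 9.81 in IELs, 8.35, 8.94 and 8.57 in Naive-like and 7.61, 8.0 and 8.40 in Type-1 cells, and was higher in IELs by 0.97 ± 0.25 (adjusted p = 0.044) and 1.59 ± 0.25 (adjusted p = 0.0022). Its relative Btg1 differed by -0.14 ± 0.35 and 0.04 ± 0.35 and did not pass. Pim1, a kinase of cell survival, was higher than in Naive-like cells by 0.87 ± 0.22 (adjusted p = 0.041); a dimmer second row of the gene differed by 0.15. Myc, the regulator of growth, read 6.97, 7.91 and 7.84 in IELs and differed by -0.07 ± 0.24 and -0.15 ± 0.24, and Ppp1r15a, which relieves the block of translation under stress, by 0.15 ± 0.45 and 0.50 ± 0.45; neither passed. Against Naive-like cells Pim1 lost its call without any one array except IEL replicate 2 and Type-1 replicate 1 (adjusted p up to 0.15) and with the run of description numbers as a block (adjusted p = 0.055), Btg2 without IEL replicate 2 or 3, Naive-like replicate 1 or 3 or Type-1 replicate 2 (up to 0.19), and Gadd45g without IEL replicate 3 or Naive-like replicate 2 or 3 (up to 0.062). Gadd45b kept both calls with each array left out in turn.

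All 3 genes of the cAMP response were higher in IELs than in Type-1 cells, and 2 of them than in Naive-like cells. Crem, whose short product ICER represses CREB targets, read 6.41, 5.77 and 6.76 in IELs, 4.68, 4.93 and 4.84 in Naive-like and 4.82, 4.39 and 4.64 in Type-1 cells; the array does not separate its isoforms here. IELs were higher by 1.5 ± 0.25 (adjusted p = 0.003) and 1.70 ± 0.25 (adjusted p = 0.0013), with no overlap. Per1, a clock gene that CREB also induces, read 7.59, 8.72 and 8.70 in IELs, 6.78, 7.20 and 6.86 in Naive-like and 6.76, 6.59 and 6.74 in Type-1 cells. It was higher in IELs by 1.39 ± 0.28 (adjusted p = 0.011) and 1.64 ± 0.28 (adjusted p = 0.0042), and the first call was lost without IEL replicate 2 or 3 or Naive-like replicate 1 or 3 (adjusted p up to 0.064). Sik1, a kinase that holds CREB coactivators in the cytoplasm, read 7.40, 8.43 and 9.02 in IELs, 6.73, 7.51 and 7.05 in Naive-like and 7.03, 5.35 and 5.83 in Type-1 cells. Naive-like replicate 2 lay above IEL replicate 1, and only the difference from Type-1 cells passed (2.21 ± 0.45, adjusted p = 0.012, lost without IEL replicate 2 or 3 at up to 0.065).

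Type-1 and Naive-like cells, both from lymph nodes and isolated in the same way, differed in none of the 47 genes at an adjusted p under 0.05 in limma, where 0.284% of all genes did (0.212% higher and 0.0721% lower in Type-1 cells). At an unadjusted p under 0.05 there were 2 higher and 6 lower in Type-1 cells, 8 of 47, where 6.48% of all genes had such a p. The median difference was -0.16, beside 0.03 over all genes, and Type-1 arrays lay above all Naive-like arrays for 3 genes and below for 6 (6.33% and 5.11% of all genes, 11.4% either way). Dusp10 had the largest difference, with every Type-1 array below every Naive-like array: -1.33 ± 0.32 (95% interval -2.02 to -0.63, adjusted p = 0.21 in limma). Egr3 (-0.87 ± 0.27), Egr2 (-0.50 ± 0.19), Btg2 (-0.62 ± 0.25), Klf6 (-0.72 ± 0.30) and Sik1 (-1.03 ± 0.45) were the other 5 lower at an unadjusted p under 0.05, and Klf10 (0.64 ± 0.20) and Gadd45g (0.69 ± 0.24) the 2 higher. For Fosb, whose arrays spread most in both of these subsets, the interval ran from -1.46 to 1.44.

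Within the lymph node subsets the module varied from array to array in a shared way. The arrays numbered 9 and 10, Naive-like replicate 2 and Type-1 replicate 1, were the highest of their subset for 22 of the 47 genes (46.8%, against 12.8% of all genes). The arrays numbered 5 and 6 were the lowest of theirs for 21 of the 47 (44.7%, against 11.7%). Fosb is the clearest case, at 9.04 and 9.16 on the arrays numbered 9 and 10 and 6.78 and 6.19 on those numbered 5 and 6. Over the 47 genes the deviations from the subset means correlated between the Naive-like and Type-1 arrays of a run at 0.653, 0.681 and 0.419, against 0.212, 0.086 and 0.382 over all genes, as a description with no test. Deviations of 3 arrays sum to 0 in each gene, so these 3 values are not independent.

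**Figure D4:**
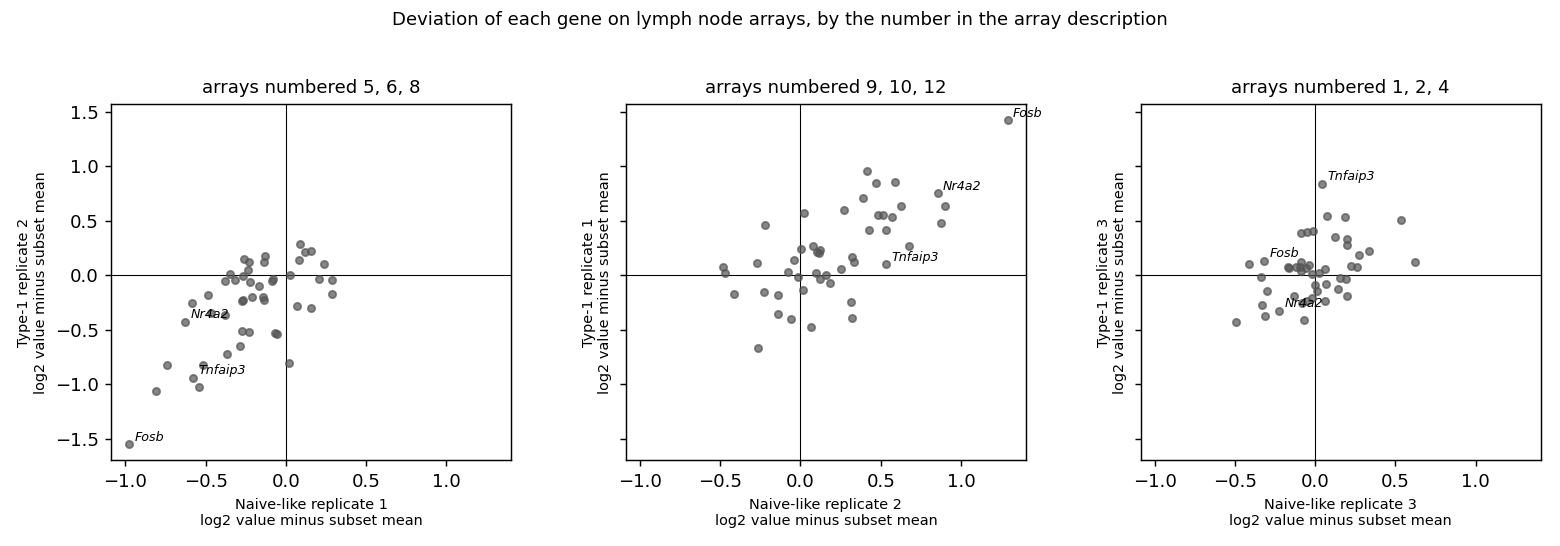
Each point is 1 of the 47 genes; the axes give its log2 value minus the mean of its subset on the Naive-like array (horizontal) and the Type-1 array (vertical) of the same run of description numbers. Points lie towards the lower left for the arrays numbered 5 and 6 and towards the upper right for those numbered 9 and 10, with Fosb at both ends.

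In IELs the array of the run 9, 10 and 12 is replicate 1, the low one. Differences between single arrays, IELs minus lymph node cells, were compared with their sign, so a large negative value counts as low. They were lowest in that run for 35 of 47 genes against Naive-like cells (74.5%, against 37.7% of all genes). Against Type-1 cells this held for 34 (72.3%, against 38.9%). That run joins the low IEL array to the lymph node arrays that were often the highest. Both counts therefore follow in large part from those given above and are not a separate observation. The median difference of the 47 genes in the runs starting with 5, 9 and 1 was 0.91, 0.13 and 1.15 against Naive-like cells and 1.04, 0.37 and 1.03 against Type-1 cells. Nr4a2 was higher by 4.94, 2.58 and 5.02 in the 3 runs against Naive-like cells and Gadd45b by 3.65, 2.03 and 3.12. Nr4a3 differed by 3.22, -0.18 and 3.15.

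In 4 lists of genes around the module 90 of 104 genes were measured. Of these 10 were higher and 4 lower in IELs against Naive-like cells, where 3.57% and 1.62% of all genes were. Against Type-1 cells 13 were higher and 4 lower, where 3.73% and 1.41% of all genes were. Of 19 measured upstream activators, which include serum response factor, CREB, NFAT and the MAP kinases, none passed against Naive-like cells. At an unadjusted p under 0.05 in limma 3 were higher and 2 lower, where 14.2% of all genes had such a p. Against Type-1 cells 2 were higher in IELs. These were the JNK gene Mapk9 (1.18 ± 0.27, adjusted p = 0.022) and Map2k3, a kinase of p38 (1.18 ± 0.31, adjusted p = 0.046). Of 14 AP-1, CREB and MAF relatives, 1 was lower in IELs in each comparison: Bach2, a repressor that competes for AP-1 sites, at -1.76 ± 0.29 (adjusted p = 0.003) and -1.32 ± 0.29 (adjusted p = 0.021). It read 4.51, 5.33 and 5.69 in IELs, 6.98, 6.54 and 7.29 in Naive-like and 6.37, 6.47 and 6.64 in Type-1 cells. None of 19 further NF-κB pathway genes passed any comparison in limma. At an unadjusted p under 0.05 there were 0, 0 and 3 against Naive-like, between lymph node subsets and against Type-1. Of all genes 14.2%, 6.48% and 16.3% had such a p. The adaptor Malt1 and the kinase Ikbkb, the brightest of these 19, differed by -0.27 and -0.27 from Naive-like cells.

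Of 38 other early response and feedback genes 10 were higher and 3 lower in IELs against Naive-like cells, and 11 and 3 against Type-1 cells. The shares over all genes were 3.57% and 1.62% against Naive-like cells and 3.73% and 1.41% against Type-1 cells. Rgs1, which dampens G-protein signals of chemokine receptors, read 11.26, 10.81 and 11.17 in IELs, 5.20, 6.82 and 5.78 in Naive-like and 8.02, 6.08 and 6.65 in Type-1 cells. It was higher in IELs by 5.14 ± 0.47 and 4.16 ± 0.47 (adjusted p = 2.7e-05 and 0.00017), and among lymph node arrays it too was highest on those numbered 9 and 10. Spry2, an inhibitor of receptor kinase signals to ERK, differed among all 3 subsets, with means of 8.80, 7.16 and 5.16 in IELs, Type-1 and Naive-like cells, and was the only gene of the 4 lists to pass between the lymph node subsets (2.00 ± 0.33, adjusted p = 0.021). Bhlhe40, a repressor induced by many stimuli, was higher in IELs by 3.0 ± 0.33 and 2.44 ± 0.33, and Trib1, a pseudokinase, by 1.57 ± 0.27 and 2.78 ± 0.27. The 3 lower genes were Dusp7, Klf2 and Klf3 in both comparisons, named after their values were seen.

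Markers of other cells and of stress were read beside the module. Of all genes 3.57% were higher in IELs against Naive-like cells and 3.73% against Type-1 cells, and 0.284% differed between the lymph node subsets. Of 20 intestinal epithelium markers 13 were higher in IELs in both comparisons and none differed between lymph node subsets; their summed linear level was 1445 to 2512 on IEL arrays, 425 to 460 on Naive-like and 424 to 463 on Type-1 arrays. On IEL replicates 1 to 3 the sum was 1810, 2512 and 1445 and the median of these markers 5.36, 6.30 and 5.46 (log2), next to module medians of 6.97, 7.91 and 7.84. Of 11 heat shock genes 10 and 8 were higher in IELs, Hspa1a by 3.51 ± 0.48 and 2.42 ± 0.48, with a summed level of 12730 to 13605 on IEL arrays, 2670 to 4029 on Naive-like and 3453 to 5748 on Type-1 arrays. The highest lymph node values, 4029 and 5748, were those of Naive-like replicate 2 and Type-1 replicate 1, the arrays numbered 9 and 10. The median of the heat shock genes was 7.69, 7.76 and 6.89 on Naive-like replicates 1 to 3 and 7.85, 7.75 and 7.61 on Type-1 replicates 1 to 3. On IEL replicates 1 to 3 it was 9.16, 8.87 and 8.94, and the summed level was 12730, 13605 and 13339. Replicate 1, the IEL array with the lowest module median, thus had the highest heat shock median but the lowest heat shock sum. Of 10 markers of macrophages, dendritic cells and granulocytes 2 were higher, Itgax (4.86 ± 0.29 and 3.94 ± 0.29) and Fcgr3 (1.95 ± 0.25 and 1.64 ± 0.25), with sums of 697 to 948, 132 to 230 and 186 to 247; the brightest of the others, Xcr1 and Lyz2, were at 4.53 and 4.91 in IELs. None of 7 B-cell markers passed, with sums of 124 to 198, 133 to 158 and 113 to 153. At an unadjusted p under 0.05 in limma there was 1, against Type-1 cells, where 16.3% of all genes had such a p. The part of epithelial RNA and of the heat shock response in the differences of the module was not tested.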

How the data were processed

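The authors deposited 1 table of log2 expression values for 41345 array rows on 9 arrays, for which oligo and RMA are named per the submitters' processing notes, with no version or filter given in the sources used here. RMA normalizes arrays to each other and compresses differences of dim genes, and the table carries no detection calls. Values ran from 0.785 to 13.463. Gene symbols came from the array platform's annotation, which gave 1 symbol for 23521 rows, several for 1814 and none for 16010, and 22180 genes were tested by their row of highest mean. Among the genes of the module, 4 had a second row. Groups came from the sample titles, and no column of another sample was used.

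The tests used limma 3.58.1 (R 4.3.3): lmFit on all 9 arrays with a mean for each subset, then contrasts and eBayes with no trend. They were two-sided, p-values were adjusted by Benjamini and Hochberg's method across the 22180 genes, and 0.05 was the threshold. Residual and prior degrees of freedom were 6 each. The fit was tested on simulated data with independent noise for each gene and array. Those data lack the shared variation from array to array described above, so the test does not cover it. No arrays were paired in these tests, and the replicate number of the titles was a block only in an alternative fit, for every comparison. Deviations of same-numbered IEL and Type-1 arrays correlated at 0.161, 0.104 and 0.303 over all genes. Over the 47 genes of the module they correlated at -0.212, -0.269 and -0.174. These values come from the data, not from the labels. The fold is 2 to the power of the log2 difference. The members of the module and all lists were chosen with earlier results of these data known. All members are named. Of the 4 lists around them, up to 4 genes of smallest adjusted p are named, or the 2 brightest where none passed. Of marker lists up to 4 of the brightest are named, and of the γδ T-cell list all 5 measured genes. Promoters are those of RefSeq for GRCm38.p6, searched over 250 bases before the first listed start of a gene or any other. Alternatives, fixed with the design, covered dim genes, scaling, spread model, array weights, rows per gene, blocks and each array left out. Tables and plots used Python 3.11.15, pandas 2.3.3, numpy 2.4.6 and matplotlib 3.10.9.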

Additional observations from a re-analysis of the deposited data

How the results depend on the processing

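No difference of the 47 genes that had passed changed its direction under any of the 23 alternatives with a test. With every array row tested as a feature of its own, 8 genes passed in IELs against Naive-like cells and 12 in IELs against Type-1 cells (2.3% and 1.96% of all rows). In the arrays without the date code, 2 per subset, 3 and 10 passed (2.41% and 2.55% of all genes). With each array left out in turn, the counts ran from 9 to 21 against Naive-like cells, from 12 to 21 against Type-1 cells and from 0 to 0 between the lymph node subsets, while the share of all genes that passed ran from 3.72% to 5.53%, from 3.26% to 5.9% and from 0.153% to 0.392%. The medians ran from 0.72 to 1.03, from 0.59 to 0.97 and from -0.27 to -0.00. These fits had fewer arrays or a larger number of features, and the cause of the changes was not tested. With the replicate number of the titles as a block, 21 and 19 genes passed (6.21% and 6.33% of all genes), and 1 between the lymph node subsets, Dusp10 (adjusted p = 0.033). Fos and Jun lost their calls against Type-1 cells in this fit, Dusp2 gained one against Naive-like cells (adjusted p = 0.02), and no other call of the 47 genes changed. The deviations of same-numbered arrays correlated over all genes at 0.087, -0.015 and 0.229 for IELs and Naive-like replicates 1 to 3. For the lymph node subsets they correlated at 0.014, 0.123 and 0.382. Over the 47 genes the values were 0.406, 0.344 and -0.145 for IELs and Naive-like replicates 1 to 3. For the lymph node subsets they were -0.618, -0.547 and 0.419. The main tests took the numbers as pairs in no comparison. Array medians subtracted left 15 and 18 genes, quantile normalization again 18 and 18, cyclic loess 20 and 19, and array weights 26 and 24. The table has no measure of signal over background, so a dim gene that did not differ may lie below detection.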
